A study of Mus musculus with 6 samples.

Results

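The proteins of the inner nuclear membrane tether chromatin and the nuclear lamina to the nuclear envelope. Several of them carry a LEM domain, a short fold named after LAP2, emerin and MAN1, which binds the small chromatin protein barrier-to-autointegration factor (BAF). Most of these proteins bind A-type lamins, and emerin needs lamin A/C to stay in the inner membrane. Mutations in the human genes for emerin and lamin A/C both cause Emery-Dreifuss muscular dystrophy.

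10 genes of this membrane were examined, chosen by name: the LEM-domain genes Emd, Tmpo, Lemd2, Lemd3 and Ankle2, the BAF gene Banf1, and the genes of other inner membrane proteins, Tmem43, Tor1aip1, Plpp7 and Nrm. All 10 were found among the 39059 genes of the count files, and all 10 were among the 14099 genes that passed the filter on low counts and were tested. RNA came from muscle stem (satellite) cells, taken from hind-limb muscle at postnatal day 19 in the C57BL/6J background and sorted by flow cytometry. 3 libraries were from mice homozygous for the Lmna Δ8-11 allele (Lmna Δ8-11 -/-, labelled HOM), and 3 were from wild-type mice (Lmna Δ8-11 +/+, labelled WT). The allele lacks exons 8 to 11 of Lmna, the gene of lamins A and C, and is known to leave a truncated lamin A. It is present in all cells of the mouse and not only in satellite cells. The protocol speaks of 3 mice for each condition without tying a library to an animal, so p-values measure the spread between these libraries, which may in part be technical.

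Reads assigned to genes ran from 7234298 to 9552751 in HOM and from 6613636 to 8426578 in WT libraries. Levels are given as CPM, gene reads scaled to a common library total after TMM normalisation. Lmna itself stood at 436, 375 and 451 CPM in HOM and at 842, 939 and 1057 CPM in WT libraries, counted over the whole gene, the undeleted exons included. The 10 satellite cell markers summed to 1256, 2096 and 1271 CPM in HOM replicates 1, 2 and 3, and to between 2498 and 2672 CPM in WT libraries. The 10 smooth muscle and pericyte markers summed to more in every library, 12895 to 13674 CPM in HOM and 11863 to 16736 CPM in WT, so transcripts listed as markers of another cell type were abundant in the sorted cells. None of the 85 genes on the 9 marker lists was at 0 reads over the 6 libraries. In bulk samples, fewer cells of a type and less RNA per cell cannot be told apart.

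Of the 10 genes, 2 were higher (Tmem43 and Lemd2) and 1 was lower (Emd) in HOM cells with edgeR's quasi-likelihood test at an adjusted p under 0.05, and 7 did not pass. Among all genes tested, 9.67% were called higher and 11.5% lower, 21.1% in all, so 3 of 10 is a share near the background. HOM and WT values did not overlap for 4 of the 10 genes, against 40.7% of all genes tested. HOM lay above WT for 3 of them (20.2% of all genes) and below it for 1 (20.6% of all genes). The median log2 fold change of the 10 genes was 0.015, beside -0.0038 over all genes, and the median size of the change was 0.30 in both. No estimated change among the 10 reached 2-fold.

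**Figure D1:**
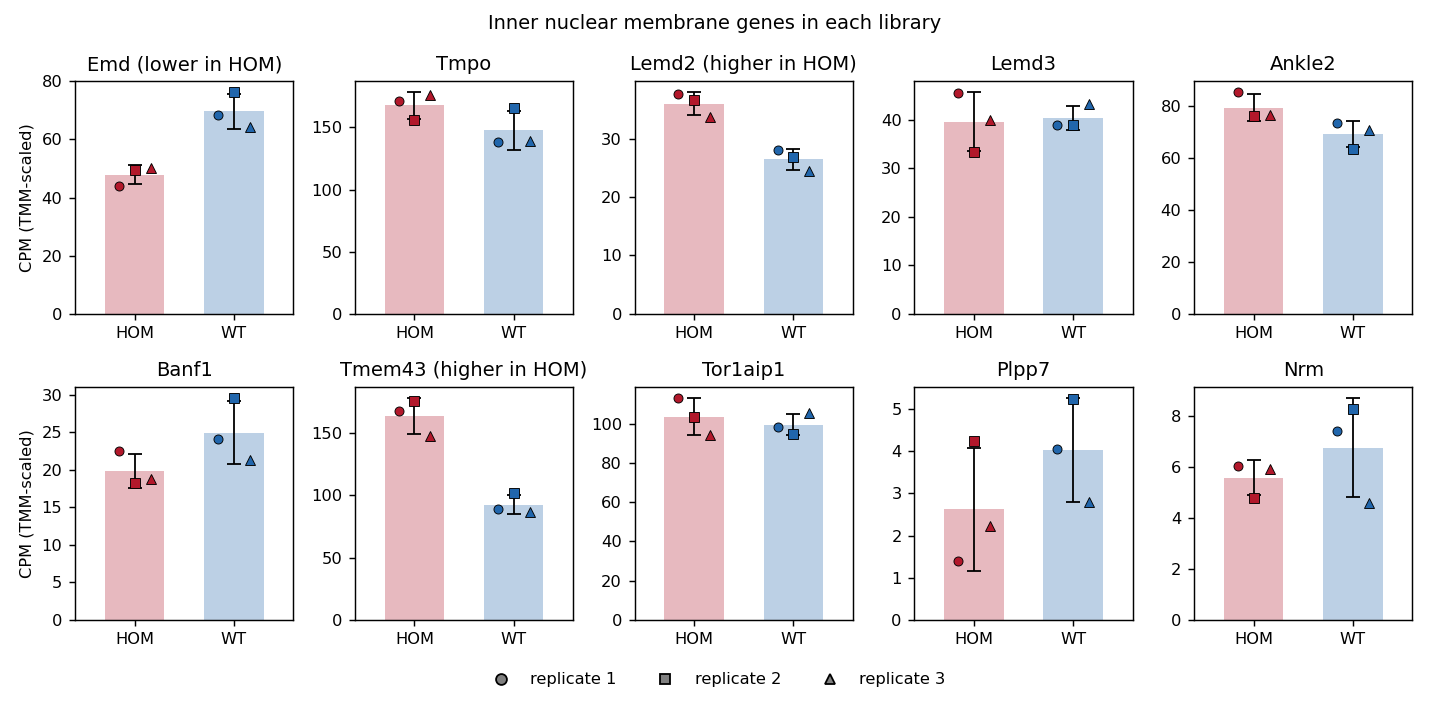
CPM (y axis, from 0) of each of the 10 genes in the 3 HOM libraries (left, red) and the 3 WT libraries (right, blue). Symbols are replicates, bars are means and error bars SD (n = 3 each). The HOM points lie wholly above the WT points for Tmem43, Lemd2 and Ankle2 and wholly below them for Emd.

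Tmem43 encodes LUMA, a membrane-spanning protein that binds emerin and lamins and whose mutation in humans causes arrhythmogenic cardiomyopathy. It lies on chromosome 6, positions 91473703 to 91488463, plus strand (GENCODE M21 on GRCm38, the assembly of mm10). It stood at 168, 176 and 148 CPM in HOM replicates 1, 2 and 3 and at 89.3, 102 and 87.0 CPM in WT replicates 1, 2 and 3, on 3985 reads in HOM and 2096 in WT. The lowest HOM library was well above the highest WT library. The means were 164 ± 14.4 CPM in HOM and 92.6 ± 7.84 CPM in WT (SD, n = 3 each), a 1.77-fold ratio and a log2 fold change of 0.82 (SE 0.12, edgeR adjusted p = 0.0020). The call held without any 1 library, with an adjusted p of 0.00098 to 0.0150.

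Emd encodes emerin and lies on the X chromosome, positions 74254687 to 74261548, plus strand. Of its exon bases, 13.6% overlap those of Gm14686, a processed pseudogene on the same strand that has no count of its own here. The count of Emd is uncertain to that extent. Emd stood at 44.1, 49.6 and 50.01 CPM in HOM and at 68.3, 76.3 and 64.4 CPM in WT libraries. Every HOM library was below every WT library, and the 3 HOM values were close together. The means were 47.9 ± 3.33 CPM in HOM and 69.7 ± 6.08 CPM in WT (SD, n = 3 each), a ratio of 0.688 and a log2 fold change of -0.54 (SE 0.12, edgeR adjusted p = 0.0106). The adjusted p ran from 0.0079 to 0.0452 when any 1 library was left out. Over 100 reads, summed over the Y-linked genes Ddx3y, Eif2s3y, Kdm5d and Uty, were present in 1 of 3 HOM and 2 of 3 WT libraries. With their presence as a covariate, Emd had a log2 fold change of -0.52 (edgeR adjusted p = 0.0308).

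Lemd2 encodes LEM2, which binds A-type lamins and recruits the ESCRT machinery that reseals the nuclear envelope after mitosis. It lies on chromosome 17, positions 27189600 to 27204469, minus strand. It stood at 37.6, 36.6 and 33.8 CPM in HOM and at 28.01, 26.9 and 24.5 CPM in WT libraries. All HOM libraries were above all WT libraries, by a margin smaller than that of Tmem43. The means were 35.99 ± 1.99 CPM in HOM and 26.5 ± 1.79 CPM in WT (SD, n = 3 each), a 1.36-fold ratio and a log2 fold change of 0.44 (SE 0.12, edgeR adjusted p = 0.0281). This call was less stable than the other two: it was lost without HOM replicate 1 (edgeR adjusted p = 0.0822), HOM replicate 3 (0.0588), WT replicate 1 (0.0692), WT replicate 2 (0.0599) or WT replicate 3 (0.0886), and the DESeq2 Wald test gave an adjusted p of 0.0517. It was also lost with the replicate number as a block (edgeR adjusted p = 0.0612) and with the presence of Y reads as a covariate (edgeR adjusted p = 0.0713).

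The RNA of Tmem43 and Emd can also be set against each other within a library, which needs no scaling between libraries. There were 3.81, 3.54 and 2.95 Tmem43 reads per Emd read in HOM and 1.31, 1.33 and 1.35 in WT libraries. For Lemd2 there were 0.854, 0.737 and 0.675 reads per Emd read in HOM and 0.410, 0.352 and 0.381 in WT libraries. Neither ratio overlapped between genotypes. Both genes were set against Emd with their calls known, so the ratios are a description and carry no test.

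**Figure D2:**
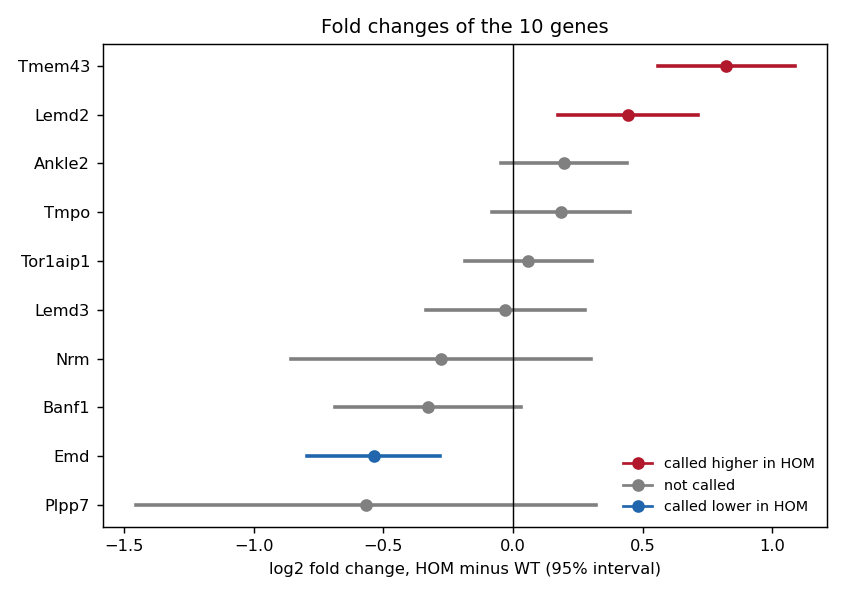
Log2 fold change, HOM minus WT (x axis), of each of the 10 genes, with points for the estimate and lines for the 95% interval of edgeR's quasi-likelihood fit (3 HOM and 3 WT libraries). Tmem43 and Lemd2 (red) lie above 0 and Emd (blue) below it, and the intervals of the 7 grey genes include 0.

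The promoters of Tmem43 and Emd, which changed in opposite directions, are shown with that of Plpp7, which shares a sequence element with Tmem43. They are the 250 bases before the start of each gene (RefSeq, GRCm38.p6, plus strand for all 3, 5′ to 3′), at chr6:91473457-91473706, chrX:74254437-74254686 and chr2:32095278-32095527. Capitals mark 3 searched motifs on either strand: the GC box GGGCGG, the CCAAT box CCAAT, and ACTACATTTCCCAG, the longest string found at 3 or more places over promoters of at least 2 of the genes, a search made after the sequences were seen.
Tmem43: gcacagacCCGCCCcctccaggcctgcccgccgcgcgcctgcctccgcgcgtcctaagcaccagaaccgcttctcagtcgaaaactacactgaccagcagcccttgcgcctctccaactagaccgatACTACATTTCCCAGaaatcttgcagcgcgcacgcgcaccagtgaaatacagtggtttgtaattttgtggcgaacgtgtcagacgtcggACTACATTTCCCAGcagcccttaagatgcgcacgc
Emd: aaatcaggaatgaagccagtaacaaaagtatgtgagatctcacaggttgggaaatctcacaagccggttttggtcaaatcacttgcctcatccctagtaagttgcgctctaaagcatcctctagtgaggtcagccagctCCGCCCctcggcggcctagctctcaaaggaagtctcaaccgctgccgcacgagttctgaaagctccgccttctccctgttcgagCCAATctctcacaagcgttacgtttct
Plpp7: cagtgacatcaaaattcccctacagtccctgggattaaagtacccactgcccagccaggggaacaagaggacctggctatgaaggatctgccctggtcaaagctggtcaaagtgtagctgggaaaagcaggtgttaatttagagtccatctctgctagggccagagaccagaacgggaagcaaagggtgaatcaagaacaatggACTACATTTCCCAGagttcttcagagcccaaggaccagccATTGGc

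The Tmem43 promoter held ACTACATTTCCCAG at 2 places and that of Plpp7 at 1, and no other promoter of the 9 genes in the RefSeq table, all but Lemd2, held it. Of 27025 genes with a promoter of this length in that table, 1 chromosome left out, 0.296% held it on either strand in at least 1 sequence. The string was picked because it recurs in promoters of these genes, so that share gives no test of enrichment. The GC box was in promoters of 6 of the 9 genes listed, Tmem43 and Emd among them, and in those of 35.4% of the 27025 genes. The CCAAT box was in promoters of 5 of the 9 genes, Emd and Plpp7 among them, and in those of 37.5% of the 27025 genes. The Tmem43 promoter held 22 CpG dinucleotides, that of Emd 12 and that of Plpp7 1, where the median of the 32851 promoter sequences of these genes was 6. These matches describe the letters in the window only.

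The other LEM-domain genes did not pass the test. Ankle2, whose product recruits the phosphatase that lets BAF bind again after mitosis, came nearest, at 85.3, 76.1 and 76.6 CPM in HOM and 73.3, 63.4 and 70.6 CPM in WT libraries. Its HOM values lay above all WT values, yet the log2 fold change was 0.20 with a 95% interval from -0.046 to 0.44 (edgeR adjusted p = 0.222). Tmpo, the gene of the LAP2 proteins, among them the membrane-bound LAP2 beta and the soluble LAP2 alpha that binds lamin A/C and the retinoblastoma protein, stood at 172, 156 and 176 CPM in HOM and 138, 166 and 139 CPM in WT libraries. WT replicate 2 lay within the HOM range, and the log2 fold change was 0.18 (95% interval -0.082 to 0.45, edgeR adjusted p = 0.295). The counts sum all Tmpo transcripts, so the LAP2 forms were not told apart. Lemd3, which encodes MAN1, an inhibitor of SMAD signalling, stood at 45.6, 33.4 and 39.9 CPM in HOM and 38.9, 38.9 and 43.3 CPM in WT libraries, with a log2 fold change of -0.030 (95% interval -0.34 to 0.28). The HOM values of Lemd3 lay on both sides of the WT values.

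Banf1, the gene of BAF itself, stood at 22.5, 18.2 and 18.9 CPM in HOM and 24.1, 29.6 and 21.3 CPM in WT libraries. HOM replicate 1 lay within the WT range, and the log2 fold change was -0.33 (95% interval -0.69 to 0.030, edgeR adjusted p = 0.172). Of the exon bases of Banf1, 28.6% overlap those of Eif1ad on the opposite strand. Whether counting used strand is unknown here, so its counts are uncertain to that extent. There were 0.511, 0.367 and 0.377 Banf1 reads per Emd read in HOM and 0.353, 0.388 and 0.331 in WT libraries, ranges that overlapped.

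The 3 remaining inner membrane genes did not pass either. Tor1aip1 encodes LAP1, which activates torsin ATPases in the space between the nuclear membranes and whose loss in humans causes a muscular dystrophy. It stood at 113, 104 and 94.5 CPM in HOM and 98.4, 94.9 and 105 CPM in WT libraries, with a log2 fold change of 0.059 (95% interval -0.19 to 0.31). Its overlap with Tor1aip2 on the opposite strand covers 12.9% of its exon bases, so its counts are uncertain to that extent, as for Banf1. Nrm, which encodes nurim, a membrane protein tightly bound in the nuclear envelope, stood at 6.01, 4.77 and 5.89 CPM in HOM and 7.41, 8.27 and 4.57 CPM in WT libraries. WT replicate 3 was the lowest of all 6 libraries. The antisense gene Ppp1r18os overlaps 13.6% of its exon bases, with the same uncertainty. The log2 fold change was -0.28 (95% interval -0.86 to 0.30).

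Plpp7 encodes NET39, a muscle-enriched protein of the nuclear envelope, and was the rarest of the 10 genes. It had 10, 40 and 17 reads in HOM and 35, 33 and 22 reads in WT libraries, or 1.40, 4.24 and 2.23 CPM in HOM and 4.05, 5.25 and 2.79 CPM in WT. HOM replicate 2 stood within the WT range, while HOM replicates 1 and 3 stood below all WT libraries. The log2 fold change was -0.57 with a wide 95% interval, from -1.46 to 0.32 (edgeR adjusted p = 0.335). Without HOM replicate 2 it was -1.13 (edgeR adjusted p = 0.0494). HOM replicate 2 also held more satellite cell marker RNA than the other HOM libraries (2096 CPM against 1256 and 1271 CPM). The muscle fibre markers summed to 46.3, 56.8 and 79.1 CPM in HOM and to 125, 122 and 75.6 CPM in WT libraries. The part of either in the Plpp7 values was not tested. Of the 7 genes that did not pass, 4 (Tmpo, Lemd3, Tor1aip1 and Ankle2) had 95% intervals that lay wholly within a 1.5-fold change, while those of Banf1, Nrm and Plpp7 reached beyond it.

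Levels of different genes were compared per kilobase of merged exons (RPKM). On that scale Tmem43 was the highest of the 10 in HOM libraries, at 41.2 ± 3.63 RPKM, followed by Tor1aip1 at 19.2 ± 1.72 and Emd at 19.0 ± 1.32 RPKM, which overlapped (SD, n = 3 each). In WT libraries Emd came first, at 27.7 ± 2.42 RPKM, above Tmem43 at 23.3 ± 1.97 and Tor1aip1 at 18.4 ± 0.988 RPKM, with no overlap between these neighbours (SD, n = 3 each). Tmpo, Ankle2 and Banf1 followed in that order in HOM, between 12.2 and 16.01 RPKM. In WT the order was Banf1, Tmpo and Ankle2, between 11.5 and 19.8 RPKM. Their ranges overlapped from each to the next in both genotypes. Tmpo has long alternative exons, so its RPKM over merged exons understates its level and its place in this order is uncertain. Lemd3 and Lemd2 were next, at 8.24 ± 1.27 and 7.38 ± 0.408 RPKM in HOM, where their ranges overlapped, and 8.40 ± 0.526 and 5.43 ± 0.366 RPKM in WT, where they did not (SD, n = 3 each). Nrm and Plpp7 were lowest, at 3.79 ± 0.467 and 1.26 ± 0.704 RPKM in HOM and 4.603 ± 1.32 and 1.94 ± 0.590 RPKM in WT (SD, n = 3 each). In WT libraries the ranges of Lemd2 and Nrm overlapped, and so did those of Tor1aip1 and Banf1.

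Summed over the 5 LEM-domain genes, the level was 65.8, 62.1 and 65.0 RPKM in HOM and 66.8, 70.5 and 65.0 RPKM in WT libraries, ranges that overlapped. The makeup of this sum differed more than its size. Emd made up 26.6, 31.7 and 30.6% of it in HOM and 40.6, 43.0 and 39.3% in WT libraries. Lemd2 made up 11.7, 12.1 and 10.7% in HOM and 8.60, 7.82 and 7.73% in WT libraries. Tmpo was between 22.8 and 24.6% in HOM and 18.8 and 21.4% in WT, Ankle2 between 21.3 and 23.5% in HOM and 16.3 and 19.9% in WT, and Lemd3 between 11.2 and 14.4% in HOM and 11.5 and 13.8% in WT. Shares of a sum are tied to each other, so a smaller share of Emd raises the others, and the understated level of Tmpo makes its own share too small and the others too large in both genotypes.

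**Figure D3:**
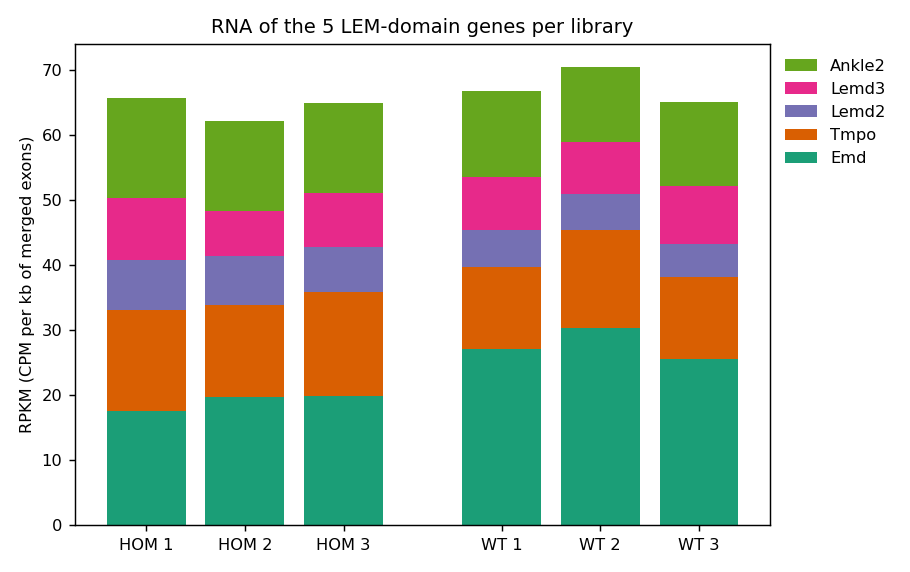
RPKM (y axis, CPM per kilobase of merged exons) of the 5 LEM-domain genes, stacked, in each HOM library (left) and each WT library (right). The totals run from 62.1 to 65.8 RPKM in HOM and from 65.0 to 70.5 RPKM in WT, with a smaller Emd segment in each HOM library than in any WT library.

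The 3 called genes followed many other genes across the 6 libraries. By Pearson's r of log2 CPM, Emd was most like S1pr3 (r = 0.999) and Unc5d (0.997), Lemd2 was most like Pyroxd1 (0.996) and Ccn2 (0.994), and Tmem43 was most like A730061H03Rik (0.996) and Maf1 (0.995). Over 14095 genes compared, 475 had an r over 0.95 with Emd, 189 with Lemd2 and 189 with Tmem43. All 6 libraries share the genotype split, so these values describe the libraries only.

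Genes that work beside these proteins were examined as lists, each read against the 9.67% higher and 11.5% lower among all genes. Those shares are for the fit with all libraries, and the calls over all genes also changed when a library was left out. Of 15 tested lamin, LINC complex and other envelope genes, 4 rose and 3 fell (median log2 fold change 0.077). Without any 1 library other than HOM replicate 2, 3 rose and 2 fell. Sun2, the SUN-domain protein that links the lamina to the cytoskeleton, stood at 335, 364 and 331 CPM in HOM and 204, 186 and 191 CPM in WT libraries, a log2 fold change of 0.82 (SE 0.12, edgeR adjusted p = 0.0017). Nemp1, an inner membrane protein that binds emerin, rose to 34.4, 32.0 and 37.4 CPM in HOM, against 19.3, 17.5 and 21.3 CPM in WT libraries (log2 fold change 0.83, SE 0.13, edgeR adjusted p = 0.0032). Lmna fell by 1.17 (SE 0.14, edgeR adjusted p = 0.0010) and Lmnb2, the gene of lamin B2, by 2.27 (SE 0.27, edgeR adjusted p = 0.000945), both on the log2 scale. Lmnb2 stood at 6.99, 7.21 and 8.25 CPM in HOM and 31.2, 53.3 and 24.4 CPM in WT libraries, with WT replicate 2 the highest.

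Of the 6 torsins and torsin cofactors, 0 rose and 1 fell (median log2 fold change -0.21), and 2 fell without HOM replicate 2. The gene called with all libraries was Tor1aip2, the gene of the endoplasmic reticulum counterpart of LAP1, at 166, 186 and 164 CPM in HOM and 245, 267 and 255 CPM in WT libraries, a log2 fold change of -0.57 (SE 0.11, edgeR adjusted p = 0.0077). The exons of Tor1aip2 share bases with those of Tor1aip1 on the opposite strand, so its counts are uncertain if strand was not used. Among 16 genes of BAF phosphorylation and envelope resealing, 1 rose and 1 fell (median 0.078). Vrk3, a VRK family member, was at 21.8, 19.9 and 22.3 CPM in HOM and 16.4, 14.8 and 15.0 CPM in WT libraries, a log2 fold change of 0.47 (SE 0.14, edgeR adjusted p = 0.0377). Vrk2, a kinase that phosphorylates BAF, was at 6.99, 5.41 and 4.58 CPM in HOM and 8.10, 10.02 and 9.65 CPM in WT libraries, a log2 fold change of -0.71 (SE 0.22, edgeR adjusted p = 0.0462). Neither VRK call was stable: Vrk3 was called without HOM replicate 2 (edgeR adjusted p = 0.033) and Vrk2 without HOM replicate 1 (0.0439), and in no other fit that left out a library. Of 10 genes whose products bind emerin or LAP2, 0 rose and 1 fell (median 0.16), while 1 rose and 1 fell without HOM replicate 2. The gene called with all libraries was Lmo7, which binds emerin and enters the nucleus, at 35.9, 50.6 and 41.0 CPM in HOM and 68.4, 61.5 and 66.2 CPM in WT libraries, a log2 fold change of -0.62 (SE 0.14, edgeR adjusted p = 0.0126). Its adjusted p was 0.0508 without HOM replicate 3 and 0.0523 without WT replicate 1.

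Of 5 tested muscle membrane genes listed beside Plpp7, 0 rose and 2 fell (median log2 fold change -0.48). Popdc2, a Popeye-domain protein better known from the plasma membrane of muscle, changed by a log2 fold of -2.58 (SE 0.44, edgeR adjusted p = 0.0040). Without HOM replicate 2 that log2 fold was -3.54. Wfs1, a membrane protein of the endoplasmic reticulum, changed by -1.02 (SE 0.18, edgeR adjusted p = 0.0045). Of 12 SMAD target genes, which MAN1 can restrain, 1 rose and 2 fell (median -0.070). Ccn2, listed as Ctgf, the gene of connective tissue growth factor, stood at 446, 450 and 384 CPM in HOM and 298, 295 and 245 CPM in WT libraries, a log2 fold change of 0.61 (SE 0.13, edgeR adjusted p = 0.0110). Skil, the gene of the SMAD inhibitor SnoN, had a log2 fold change of -0.58 (SE 0.13, edgeR adjusted p = 0.0134). Its adjusted p was 0.0560 without HOM replicate 1 and 0.0571 without HOM replicate 3. Ltbp2, a latent TGF-beta binding protein family member, had a log2 fold change of -1.80 (SE 0.56, edgeR adjusted p = 0.0445). That call was kept only without HOM replicate 2, where the log2 fold change was -3.21, and was lost without any other 1 library (adjusted p 0.0760 to 0.126).

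LEM proteins and BAF take part in rebuilding the envelope at the end of mitosis. Of 19 tested genes of S phase and mitosis, 1 (Mcm7) rose and 10 fell (median log2 fold change -1.46). The number that fell was 4 without HOM replicate 1, 6 without HOM replicate 3 and 6 without WT replicate 2. Over all genes tested, 1617 were called lower with all libraries and 881, 884 and 1032 in those fits, in that order. In the list 0 rose without WT replicate 1 or 3 and 2 without HOM replicate 2. Of the 10 that fell, Aurkb, Bub1 and Cenpf reached the filter's level in WT libraries only, so that their direction was set by the filter. Cenpf, the gene of a kinetochore protein, stood at 1.12, 1.17 and 0.393 CPM in HOM and 12.7, 24.5 and 7.36 CPM in WT libraries (log2 fold change -4.00, SE 0.51, edgeR adjusted p = 0.0012). Mki67, the proliferation marker, stood at 8.95, 11.98 and 9.16 CPM in HOM and 50.7, 141 and 43.2 CPM in WT libraries. Its log2 fold change was -2.94 (SE 0.42, edgeR adjusted p = 0.0019), and -2.22 without WT replicate 2. Aurkb, the gene of the mitotic kinase Aurora B, had 0, 4 and 1 reads in HOM and 29, 47 and 11 reads in WT libraries (edgeR adjusted p = 0.0073). Ccna2, the gene of cyclin A2, stood at 2.38, 3.29 and 2.75 CPM in HOM and 9.95, 36.4 and 9.02 CPM in WT libraries (log2 fold change -2.68, SE 0.53, edgeR adjusted p = 0.0075), and its log2 fold change was -1.74 without WT replicate 2. WT replicate 2 was far above the other WT libraries for Mki67 and Ccna2, and it was also the highest WT library for Emd, Tmpo, Banf1, Tmem43, Plpp7 and Nrm. Summed over the list, the level was 539, 440 and 509 CPM in HOM and 441, 910 and 476 CPM in WT libraries, with WT replicates 1 and 3 within the HOM range. Pcna was the largest part of this sum, at 289, 218 and 258 CPM in HOM and 153, 212 and 195 CPM in WT libraries. It was higher in every HOM than in any WT library but was not called (edgeR adjusted p = 0.0644). The sum therefore does not show the level of the genes that fell. Without WT replicate 2 Emd had a log2 fold change of -0.47 (edgeR adjusted p = 0.0356) and Tmem43 of 0.89 (edgeR adjusted p = 0.0064). The part of cell division in the other values was not tested.

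**Figure D4:**
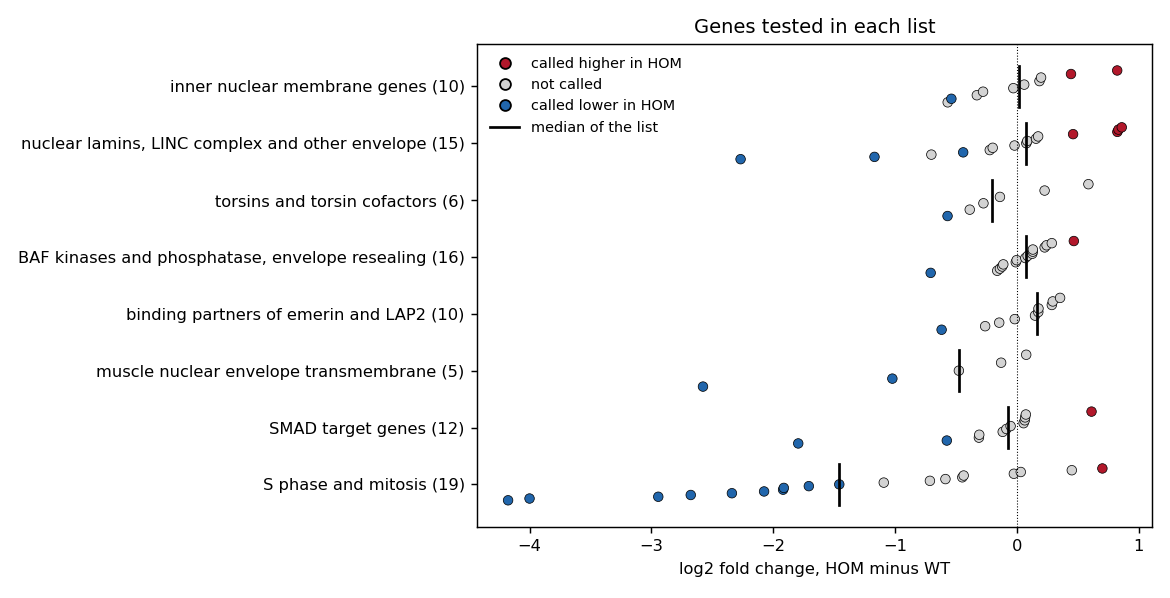
Log2 fold change, HOM minus WT (x axis), of every tested gene of the 10-gene set and of 7 lists of related genes (rows, number of genes in brackets), the cell type markers left out. Red points were called higher and blue points lower in HOM, and black bars are medians, which run from -1.46 for S phase and mitosis to 0.16 for binding partners of emerin and LAP2.

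Markers of several cell types differed between genotypes as well. Among all genes tested, 9.67% were called higher and 11.5% lower, and small counts such as 1 of 6 are not far from these shares. They hold for the fit with all libraries. Without HOM replicate 2, 1764 genes over the whole series were called higher and 2238 lower, against 1363 and 1617. Without any other 1 library these numbers were smaller, at 655 to 924 higher and 881 to 1199 lower. The fibro-adipogenic progenitor markers summed to between 3506 and 4810 CPM in HOM and between 7103 and 7508 CPM in WT libraries, with 1 of 10 called higher and 6 lower, and 0 higher without HOM replicate 1, WT replicate 1 or WT replicate 2. The adipocyte markers summed to between 454 and 1035 CPM in HOM and between 185 and 302 CPM in WT libraries. Fabp4 made up most of that sum, at 354, 407 and 615 CPM in HOM and 293, 180 and 241 CPM in WT libraries. Of the 8 adipocyte markers, Cidec, Cfd and Adipoq reached the filter's level in HOM libraries only, with at most 4 reads in any WT library, so that their direction was set by the filter. Fabp4 and Pparg, which reached it in both genotypes, were called higher, and Plin1, Retn and Lep were not tested. The satellite cell markers fell for 6 of 10 and rose for 0. The number lower was 3 without HOM replicate 1 or WT replicate 1 and 4 without HOM replicate 3 or WT replicate 2. It was 5 without WT replicate 3 and 9 without HOM replicate 2. The smooth muscle and pericyte markers rose for 3 of 10 and fell for 1, and 0 fell without any 1 library other than HOM replicate 2, without which 2 fell. The erythroid markers fell for 4 of 7, and their sums ran from 217 to 885 CPM in HOM and from 899 to 1599 CPM in WT libraries. That count was 0 without WT replicate 2 or 3, 1 without HOM replicate 1 or 3 and 7 without HOM replicate 2. Of the Schwann and glial markers 3 of 8 rose and 3 fell, and 1 rose and 1 fell without HOM replicate 3, WT replicate 1 or WT replicate 2, while 1 fell without HOM replicate 1 or WT replicate 3. Their sums overlapped, at 4036 to 5640 CPM in HOM and 5255 to 6725 CPM in WT libraries. None of the 10 endothelial markers was called, though 5 were lower without HOM replicate 2, with sums of 474 to 810 CPM in HOM and 537 to 823 CPM in WT libraries. Of 6 tested leukocyte markers 1 rose, with sums of 33.8 to 52.1 CPM in HOM and 32.1 to 61.1 CPM in WT libraries. Of 11 tested muscle fibre markers 3 fell and 0 rose, with 1 lower without WT replicate 1, 2 without HOM replicate 1 or WT replicate 2, and 1 higher without HOM replicate 2. Myh2, among the 3, reached the filter's level in WT libraries only. The part of these cell types in the values of Tmem43, Lemd2 and Emd was not tested.

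**Figure D5:**
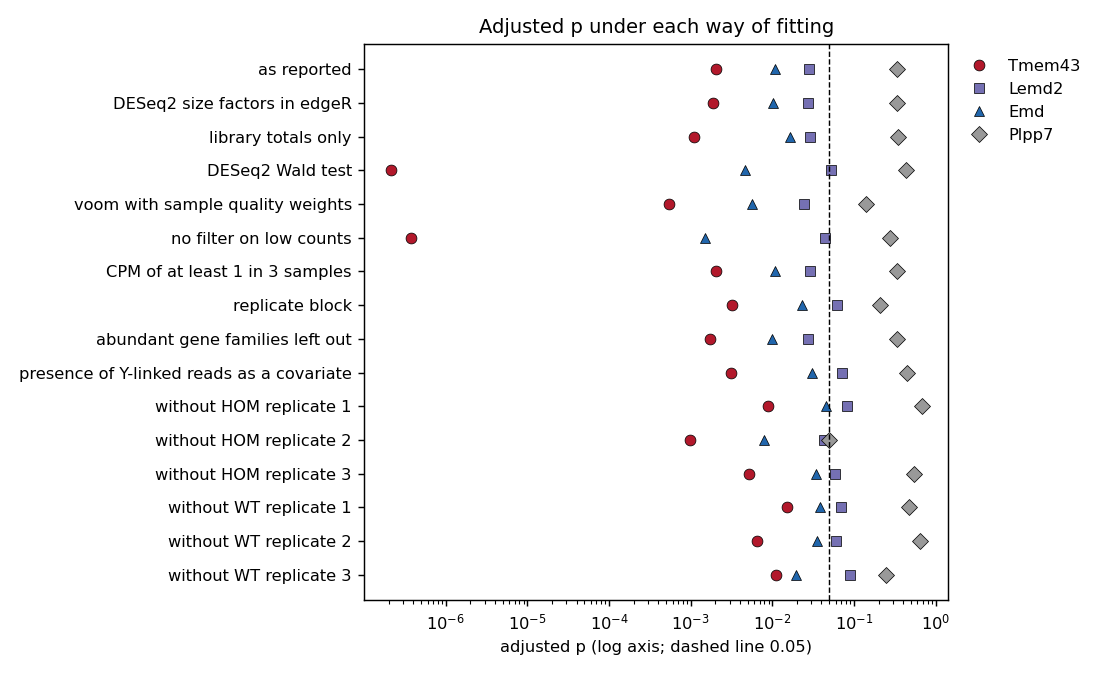
Adjusted p (x axis, log scale) of Tmem43, Lemd2, Emd and Plpp7 in the reported fit and in 15 other ways of fitting (rows), with a dashed line at 0.05. Tmem43 and Emd lie left of the line in every row, Lemd2 crosses it in 8 of them, and Plpp7 lies left of it only without HOM replicate 2.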

How the data were processed

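Total RNA libraries with ribosomal RNA removal were sequenced, per the labels' protocols. The authors deposited 1 file per library with raw counts for each Ensembl gene. Per the submitters' processing notes, the tools were Trimmomatic 0.32, STAR 2.5.2b and HTSeq 0.6.1, with build mm10. What each tool did, whether strand was used and which annotation was counted are not known here. Summary lines that name no gene, 45.0 to 49.8% of reads, were left out. Libraries were grouped by title. No 2 libraries of a genotype agreed within sampling noise (chi-square of 9.16 to 25.1 per gene). Symbols, positions and merged exon lengths came from GENCODE M21, which matched 38861 of 39059 identifiers.

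Counts were filtered with filterByExpr (minimum count 10, minimum total 15), TMM-normalised and compared (HOM over WT) with edgeR 4.0.16 in R 4.3.3, quasi-likelihood test without covariates, with Benjamini-Hochberg adjustment over 14099 genes and a threshold of 0.05. The SE is the absolute log2 fold change divided by the square root of F. RPKM is CPM per kilobase of merged exons. Likeness used log2(CPM + 0.1) over genes averaging 1 CPM or more. DESeq2 1.42.0 and limma 3.58.1 served as alternatives. The 10 genes, the lists and the alternatives were chosen with earlier results of these data known. Named beside the 10 are, per list, up to 4 called genes with the smallest p. Mcm7 and Pcna were named after their values were seen.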

Additional observations from a re-analysis of the deposited data

How the results depend on the processing

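Tmem43 and Emd kept their direction and call in all 15 alternatives, at 0.77 to 0.90 and -0.59 to -0.47 on the log2 scale when 1 library was left out. Lemd2 kept its direction but lost its call with the DESeq2 Wald test (0.45), with the replicate number as a block (0.44, edgeR adjusted p = 0.0612) and with Y-linked reads as a covariate (0.43), which left 1 gene called higher in each. Leaving out each library in turn gave 0.39 to 0.49 for Lemd2, 1 to 2 genes called higher and 1 to 2 called lower. Over the same 6 fits Plpp7 ran from -1.13 to -0.28, Lemd3 from -0.13 to 0.080 and Tor1aip1 from -3.4e-05 to 0.13, the sign of the last 2 turning, while Tmpo (0.13 to 0.28), Ankle2 (0.14 to 0.24), Banf1 (-0.43 to -0.19) and Nrm (-0.50 to -0.12) kept theirs without a call. All genes called ran from 655 to 1764 higher and 881 to 2238 lower, and list genes from 4 to 9 higher and 11 to 21 lower. With Y-linked reads as a covariate 793 genes were called higher, against 1363. The cause was not tested.

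Nothing stated ties HOM and WT libraries of the same replicate number. Same-numbered libraries correlated at -0.036, 0.022 and -0.096 in their deviations from the group means. These values showed no pairing, but with 3 libraries per group they cannot exclude it. With the block 1024 genes were called higher and 1413 lower, against 1363 and 1617. Plpp7 and Nrm rest on 67 and 133 reads in HOM and 90 and 152 reads in WT, which limits their precision.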
